A study of Rattus norvegicus with 4 samples.

Results

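The genes described here encode the machinery that docks synaptic vesicles, fuses them with the plasma membrane and thereby releases neurotransmitter, together with their paralogues that serve fusion in other cells. Members were all genes named in the H3K27me3 peak list of the rat sciatic nerve whose symbol starts with Syt, Stx, Vamp, Cplx, Syn, Rims, Stxbp or Snap followed by a digit, and Syp, Sv2a, Sv2b and Sv2c. This gave 46 of the 10647 genes that the list names. H3K27me3, trimethylation of histone H3 at lysine 27, is placed by the Polycomb complex PRC2 and marks silenced genes. The libraries came from sciatic nerves of male rats (Sprague Dawley) at postnatal day 42, on the side of the sham-operated limb, which received a skin incision only. The nerve of the opposite limb was cut, and tissue was taken 1 day later. There were 2 H3K27me3 libraries and 2 input libraries from micrococcal nuclease-digested chromatin. The authors deposited a single combined H3K27me3 peak list on the assembly rn5, with 129550 peaks and no value per library. No spread between replicates can therefore be given, no test was run, and every value below describes this pooled list. Depth per library is unknown.

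Vesicle fusion is driven by SNARE proteins: a vesicle SNARE (the Vamp genes) zips with a syntaxin (Stx) and a SNAP-family protein on the target membrane. Stxbp proteins bind syntaxins, complexins (Cplx) hold the partly assembled machinery ready, and synaptotagmins (Syt) sense the calcium that triggers fusion. RIM proteins (Rims) organise the active zone, synapsins (Syn) hold vesicles in reserve, and synaptophysin (Syp) and the SV2 proteins sit in the vesicle membrane. Neurons use dedicated paralogues of these families, while other paralogues serve the Golgi, endosomes, lysosomes and constitutive secretion in most cells. The nuclei of a sciatic nerve belong to Schwann cells, to fibroblasts and perineurial cells of the sheaths, and to vessel and immune cells, because the cell bodies of its axons lie in the spinal cord and the ganglia. In such bulk tissue, a mark on fewer cells and a weaker mark per cell cannot be told apart.

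Each member was placed by hand in the class neuronal (30 genes, best known from neurons or neuroendocrine cells), ubiquitous (11 genes) or other (5 genes, restricted to other tissues or mixed). A promoter peak is a peak that covers its gene's annotated transcription start site (TSS) or ends no more than 1000 bp from it. Promoter sequences from RefSeq on the assembly GRCr8, 250 bases before to 50 bases after the start, show the kind of sequence under the mark at the highest-scoring member and at a ubiquitous relative that no peak names. Both are printed in the direction of transcription, with CG dinucleotides in capitals. The builds differ, so the windows were matched by gene and not by coordinates, and whether they share the TSS of the peak list was not checked.
Syt6 promoter, chr2:193781226-193781525, plus strand: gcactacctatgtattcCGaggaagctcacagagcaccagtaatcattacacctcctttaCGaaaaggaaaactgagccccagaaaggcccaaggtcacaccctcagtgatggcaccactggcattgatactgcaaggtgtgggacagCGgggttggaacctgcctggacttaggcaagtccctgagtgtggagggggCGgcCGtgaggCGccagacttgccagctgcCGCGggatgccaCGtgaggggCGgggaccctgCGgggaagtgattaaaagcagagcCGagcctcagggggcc
Snap23 promoter, chr3:127967636-127967935, plus strand: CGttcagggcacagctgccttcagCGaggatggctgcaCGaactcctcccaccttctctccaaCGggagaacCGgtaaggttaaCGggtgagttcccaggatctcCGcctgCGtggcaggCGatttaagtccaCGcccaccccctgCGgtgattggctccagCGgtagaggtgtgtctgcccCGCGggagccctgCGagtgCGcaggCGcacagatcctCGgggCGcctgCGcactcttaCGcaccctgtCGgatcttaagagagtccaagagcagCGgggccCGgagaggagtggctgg
The Syt6 window held 12 CG dinucleotides and the Snap23 window 24. The gene of the neuronal relative Snap25 has no entry in the table of promoters.

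The neuronal paralogues mostly carried a promoter peak and the ubiquitous paralogues mostly did not. Of the 46 members 30 had one (65.2%, 95% Wilson interval 50.8 to 77.3%), where the background over all 10647 named genes was 38.4%. Among neuronal members the count was 25 of 30 (83.3%, 66.4 to 92.7%), and among ubiquitous members it was 2 of 11 (18.2%, 5.14 to 47.7%). The class other had 3 of 5. The intervals treat genes as independent and cover counting error only. They do not cover the placing in classes, which was made by hand with earlier results of these data known. Ligand-gated neurotransmitter receptor genes (45 of 56, 80.4%) and potassium channel genes (72 of 86, 83.7%) gave shares near that of the neuronal members. The highest promoter peak of each member had a median score of 72.0 and the widest a median of 2260 bp, against 40.6 and 1341 bp over all named genes with a promoter peak. The 95% intervals of the member medians, 28.9 to 126.7 and 1237 to 3526 bp, contain these background values. Among peaks that contain the TSS the order turned, with medians of 91.2 and 2756 bp in members against 122 and 3250 bp over all such genes. It also turned among peaks of at least 1000 bp, with 91.2 and 2756 bp in members against 105 and 2874 bp. Scores are the authors' values, with no stated scale. The score went with width (Spearman rho 0.980 across the 30 members, 0.989 across 4088 genes, a description over peaks of 1 pooled list), so the widths and scores are nearly the same ranking.

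**Figure D1:**
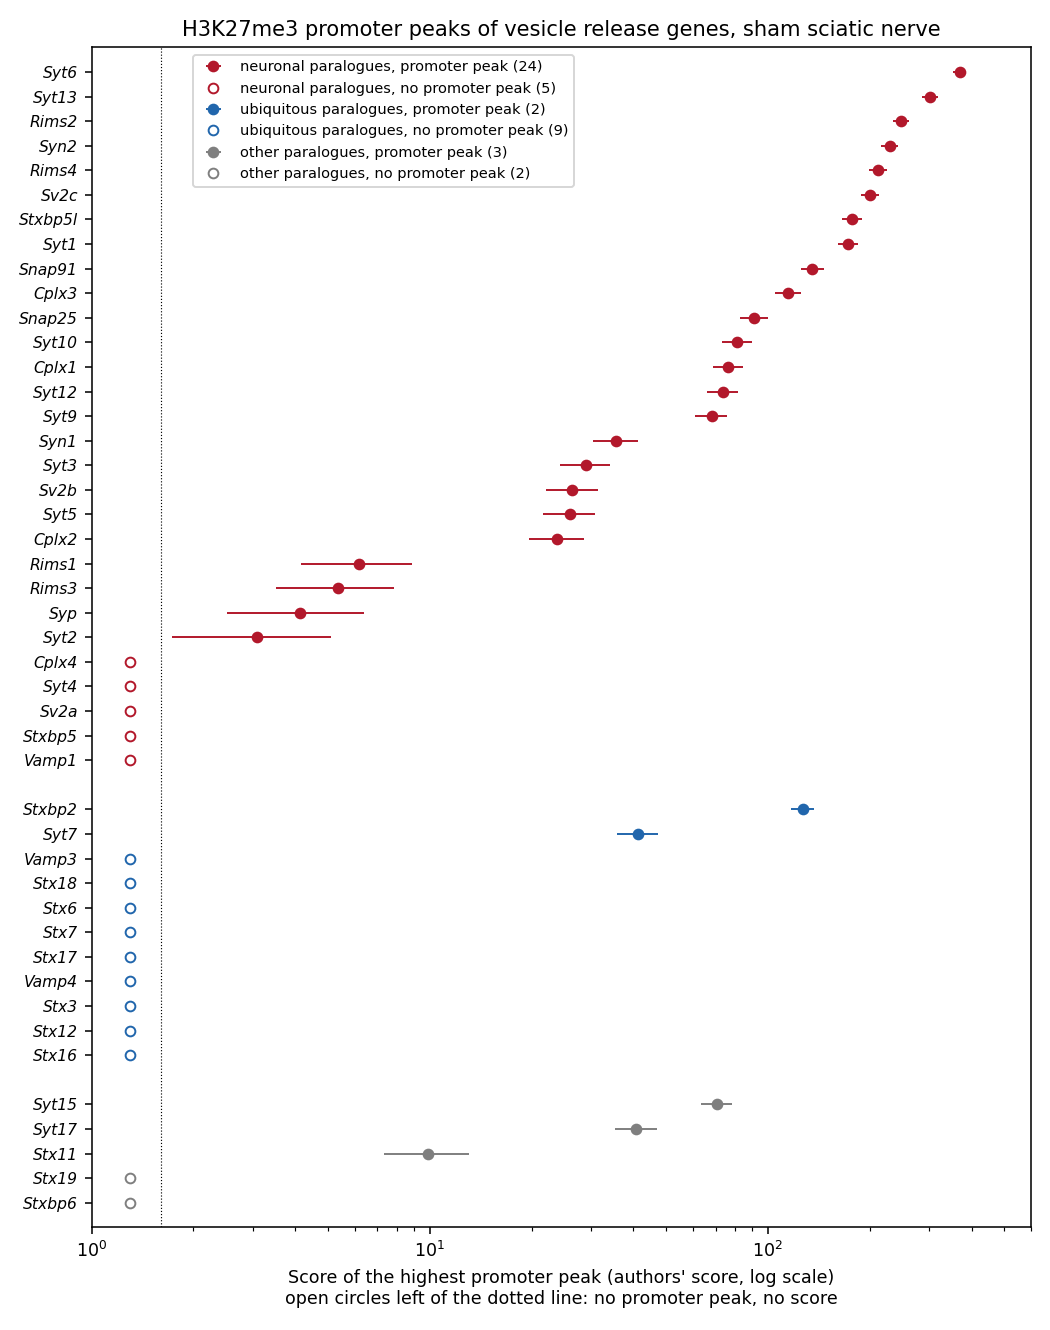
Score of the highest promoter peak of 45 members on a log axis, with neuronal paralogues in red, ubiquitous in blue and other in grey. Horizontal bars are 95% counting intervals that treat 1 score step as 1 tag, and open circles left of the dotted line are members without a promoter peak. Neuronal members ran from 3.09 at Syt2 to 368.6 at Syt6, while 9 of the 11 ubiquitous members had no promoter peak.

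The 2 highest scores belonged to synaptotagmins, while the median over the 12 synaptotagmins with a promoter peak was 69.3, against the 72.0 of all marked members. Syt6, a plasma membrane synaptotagmin, lay under a peak of 7997 bp (rn5 chromosome 2, 225488137 to 225496134) centred 232 bp upstream of its TSS. Its score was 368.6 (95% counting interval 352 to 386), rank 301 of the 4088 genes with a promoter peak. Syt13, an atypical synaptotagmin known from neuroendocrine cells, followed with 6811 bp and 301.8 (chromosome 3, 88513436 to 88520247). Syt1, the fast calcium sensor of most central synapses, had 5413 bp and 172.6 (161 to 185; chromosome 7, 50648482 to 50653895), and this peak also contained the TSS. All 3 were centred in the authors' promoter-TSS class. Below them came Syt10 (81.1), Syt12 (73.4), the fast sensor Syt9 (68.1), Syt3 (28.9) and Syt5 (26.0). In all, 12 of the 13 synaptotagmin members had a promoter peak (92.3%, against 38.4% of all named genes). In 6 of the 13 a promoter peak contained the TSS (46.2%, against 13.8%).

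Syt2, the fast sensor of the neuromuscular junction and of brainstem synapses, stood at the other end. Its promoter peak had the smallest width in the list, 150 bp, and a score of 3.09 (1.73 to 5.10). A far stronger peak (6383 bp, score 299.7) was assigned to the same gene, but it was centred 32837 bp upstream of the annotated TSS (chromosome 13, 56585926 to 56592309). Further upstream peaks of Syt2 scored 143.2 (55661 bp away) and 210.2 (91361 bp away). Whether these lie at another start of Syt2 was not tested. Syt4, which is induced by activity in neurons, was the synaptotagmin member without a promoter peak. Its closest peak, of 150 bp and score 2.89, ended 1109 bp short of the TSS.

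Syt7 was placed with the ubiquitous class, since it serves lysosome exocytosis in many cells as well as slow release in neurons. It was 1 of the 2 members of that class with promoter peaks, which scored 41.3 (1237 bp, intron 1) and 20.8 (579 bp, upstream). Syt15 (70.5, 2371 bp) and Syt17 (40.8, 1302 bp) of the class other were also marked. No peak names the remaining relatives Syt8, Syt11, Syt14 and Syt16.

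The active zone genes were divided within their family. All 4 RIM genes had a promoter peak (background 38.4%), but their scores spanned 5.36 to 247.9. In only 1 of the 4 did a peak contain the TSS (background 13.8%). Rims2 had promoter peaks at both annotated TSS. At the upstream TSS a small peak (232 bp, 5.57) lay across the start, and a peak of 5091 bp and 247.9 (chromosome 7, 78158085 to 78163176) was centred 3295 bp further upstream. At the downstream TSS a peak of 2327 bp and 88.5 lay across the start. Rims4 had 5511 bp and 211.8 (199 to 225; chromosome 3, 166485351 to 166490862), beginning 34 bp downstream of the TSS and centred in intron 1. Rims1, the main RIM of brain synapses together with Rims2, had a peak of 250 bp and 6.19 (4.17 to 8.83). At Rims3 the promoter peak was of 150 bp and 5.36, yet a peak of 2895 bp and 130.0 was centred 4900 bp upstream.

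Most SNARE members had no promoter peak at the reach of 1000 bp, with Snap25 as an exception. Over all named genes 38.4% had one. Within 20 kb of the TSS, peaks of the ubiquitous syntaxins covered from 0 bp at Stx6 to 3584 bp at Stx17. The median over all named genes was 1105 bp. Snap25, the neuronal SNAP and a target of botulinum toxins, had a peak of 2686 bp and 91.2 (82.9 to 100; chromosome 3, 136180049 to 136182735) across its TSS, with 9.08 just downstream and 51.6 in intron 1, 15268 bp away. Snap91, which encodes the clathrin adaptor AP180 and is a SNAP by name only, had 135.3 (3526 bp) in intron 2 and 45.8 (1516 bp) upstream of the TSS. No peak names the ubiquitous Snap23, Snap29 or Snap47. None of the 3 Vamp members had a promoter peak. Vamp1, a neuronal vesicle SNARE, had 2 peaks, of which the closest (150 bp, 3.30) was centred 3109 bp upstream. The closest peak of Vamp4 (27.6, 1354 bp) was centred 4994 bp upstream. All 63 peaks assigned to Vamp3 were centred in the neighbouring gene Camta1, with the highest, 222.6, 53390 bp from the Vamp3 TSS. No peak names Vamp2, the main vesicle SNARE of brain synapses, nor Vamp5, Vamp7, Vamp8 or Vamp9.

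Over all named genes 38.4% had a promoter peak, and 61.9% with a reach of 5000 bp. At that wider reach the ubiquitous class, which holds most syntaxin members, was at 72.7%. Stx11, a syntaxin of immune cells, had a promoter peak at the reach of 1000 bp, with a score of 9.90 (590 bp, upstream). The ubiquitous Stx3, Stx6, Stx7, Stx12, Stx16, Stx17 and Stx18 and the epithelial Stx19 had none. Stx3 missed the reach narrowly, with its nearest peak ending 1292 bp from the TSS. The nearest peak ended 1938 bp away at Stx12 and Stx17 and 2007 bp away at Stx16. Just inside the reach lay Stx11 (744 bp) and Syp (713 bp), and just outside it Syt4 and Stx3. At Stx6 the closest peak was 87553 bp away, and at Stx19 173869 bp. No peak names the neuronal Stx1a or the ubiquitous Stx2, Stx4, Stx5 and Stx8.

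Among the syntaxin-binding genes the marks crossed the classes, although Stxbp2, placed as ubiquitous, would by its known cells also fit the class other. Stxbp5l, a neuronal tomosyn that restrains fusion, had 4552 bp and 177.8 (166 to 190; chromosome 11, 69337004 to 69341556) across its TSS into intron 1, while its paralogue Stxbp5 had no peak within 20 kb. Stxbp2, which serves secretion in immune and epithelial cells, had 126.7 (117 to 137; 2884 bp, chromosome 12, 4339193 to 4342077) upstream and 19.6 (901 bp) in intron 1. In the newer assembly its named protein-coding neighbours are Pcp2, a Purkinje cell gene, and Retn. Which of these genes the upstream peak serves was not tested. Stxbp6 had no promoter peak. No peak names Stxbp3 or Stxbp4.

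Complexins, synapsins and vesicle membrane genes had a promoter peak in 8 of 10 members (background 38.4%). A peak contained the TSS in 2 of the 4 complexins and in none of the synapsins or vesicle membrane genes (background 13.8%). Cplx3, a complexin of retinal ribbon synapses, had 114.7 (3776 bp), Cplx1 76.3 (2756 bp, centred in a CpG island of the authors' annotation) and Cplx2 23.7 (1092 bp). The retinal Cplx4 had none, although 41.3 was reached in its intron 2, 10665 bp from the TSS. Syn2 had 229.6 (216 to 243; 5016 bp, chromosome 4, 210326906 to 210331922) in intron 1 and 87.5 (2312 bp) upstream. Syn1, on the X chromosome, had 35.5 (30.4 to 41.2; 1386 bp, intron 1). No peak names Syn3. Of the SV2 genes, Sv2c had 200.3 (188 to 213; 4734 bp) and 115.9 (2913 bp) on the 2 sides of its TSS, Sv2b 26.4 (773 bp) and the broadly used Sv2a none, with its nearest peak (150 bp, 3.30) centred 3544 bp upstream. Syp, also X-linked and the classic marker protein of synaptic vesicles, had 150 bp and 4.13 (2.52 to 6.37). Of all 250 named genes on X, 33.2% had a promoter peak, against 38.5% of the 10397 others.

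Promoter peaks covered the TSS itself at a share near that of all genes. A promoter peak contained the TSS in 11 of the 30 members (36.7%), near the 35.9% of all 4088 genes with a promoter peak. In 12 of the 30, against 28.6% of the 4088, promoter peaks lay on both sides of a TSS that none contained, among them Syn2, Sv2c, Snap91, Syt9 and Syt12. By its centre, the highest promoter peak fell in intron 1 in 13 members (43.3%, against 38.4%) and in the promoter-TSS class in 7 (23.3%, against 29.9%). In 6 of the 30, against 567 of the 4088 (13.9%), the widest promoter peak had at least 5000 bp. Within 20 kb of the TSS, the peaks assigned to a neuronal member covered a median of 4800 bp. The median was 1264 bp for ubiquitous members and 1105 bp over all named genes. Rims2 had the most, 22996 bp, but summed over its 2 annotated TSS. Stxbp5l, with 1 annotated TSS, had 22134 bp.

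**Figure D2:**
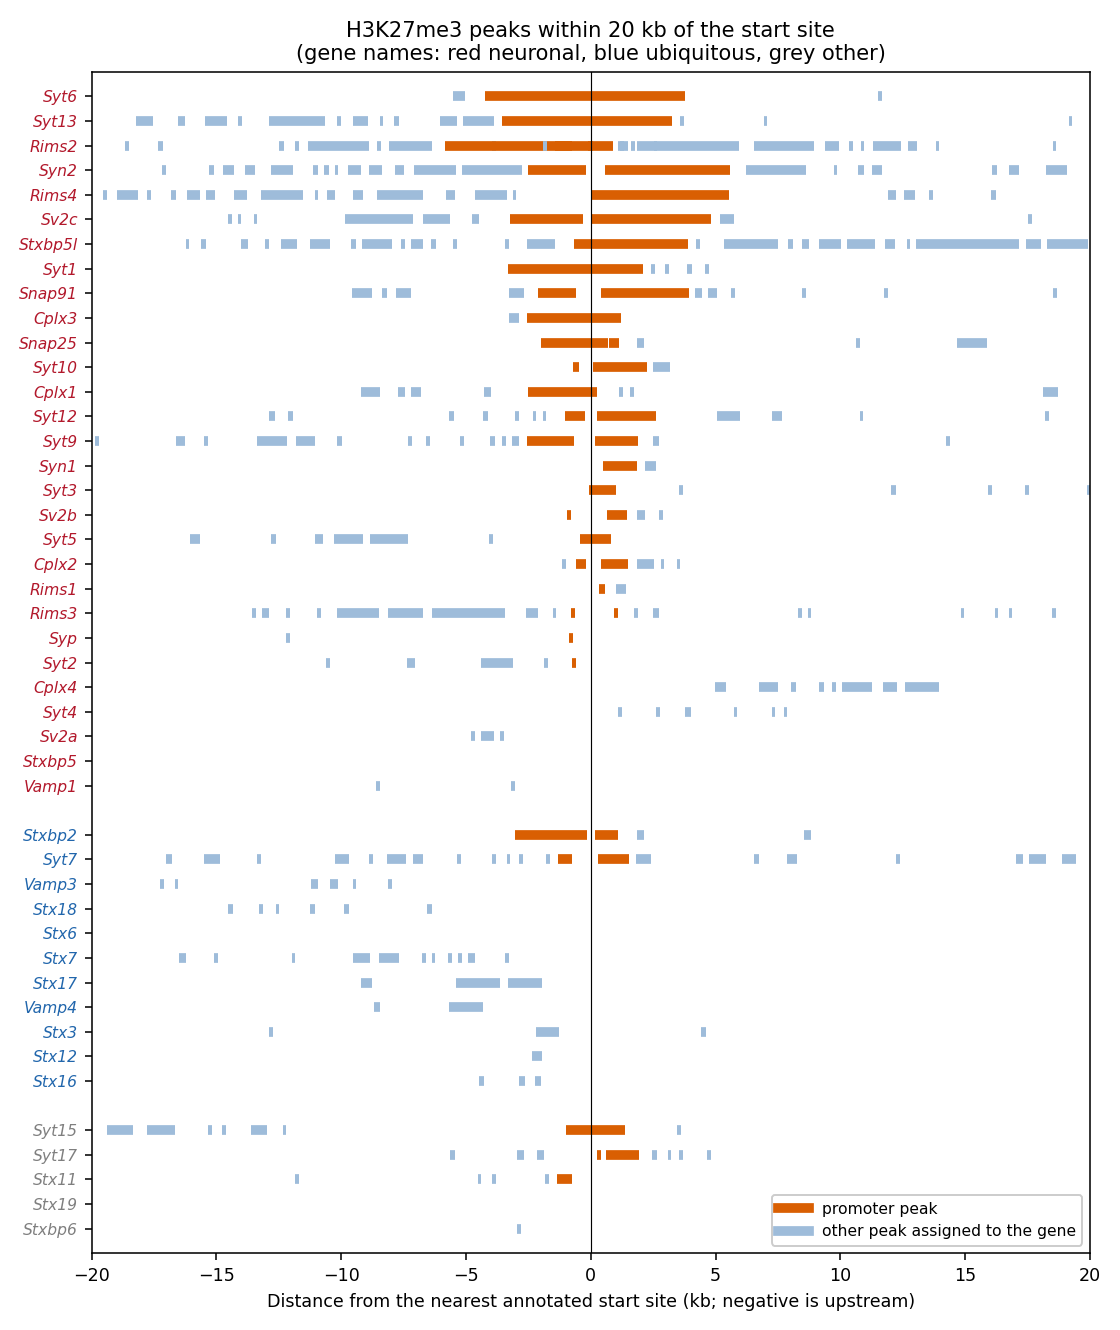
Peaks assigned to each of 45 members within 20 kb of its annotated TSS, drawn to scale with promoter peaks in orange and other peaks in pale blue (upstream is negative). For Rims2 and Snap25, each with 2 annotated TSS, distances run from the TSS nearest to each peak. Most neuronal members, at the top, have peaks at or beside the line at 0, and most ubiquitous members have gaps there.

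Genes that no peak names were counted next. The table of rat genes holds 67 protein-coding genes that fit the naming rule, of which peaks name 30 of 34 neuronal, 11 of 21 ubiquitous and 5 of 12 others. Over all 23148 protein-coding genes of the table peaks name 44.4%. Counting unnamed genes as without a promoter peak gave 25 of 34 neuronal (73.5%), 2 of 21 ubiquitous (9.52%) and 3 of 12 others, where the background over the table was 17.2%. An unnamed gene may be one that the annotation used for the peaks does not hold.

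The contrast depended on the reach. With a reach of 5000 bp, 29 of 30 neuronal and 8 of 11 ubiquitous members had a promoter peak (96.7 and 72.7%, background 61.9%), so the ubiquitous class was then no lower than the background. With peaks that contain the TSS the counts were 10 of 30 and 0 of 11 (background 13.8%), and when the peak's centre had to fall in the promoter-TSS class they were 14 of 30 and 0 of 11 (background 18.4%). Over all members, 28 of 46 had a promoter peak scoring no less than the median peak (background 32.7%) and 26 one in the top 25% of scores (background 28.1%). A share of 0 of 11 has a Wilson upper bound of 25.9%.

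**Figure D3:**
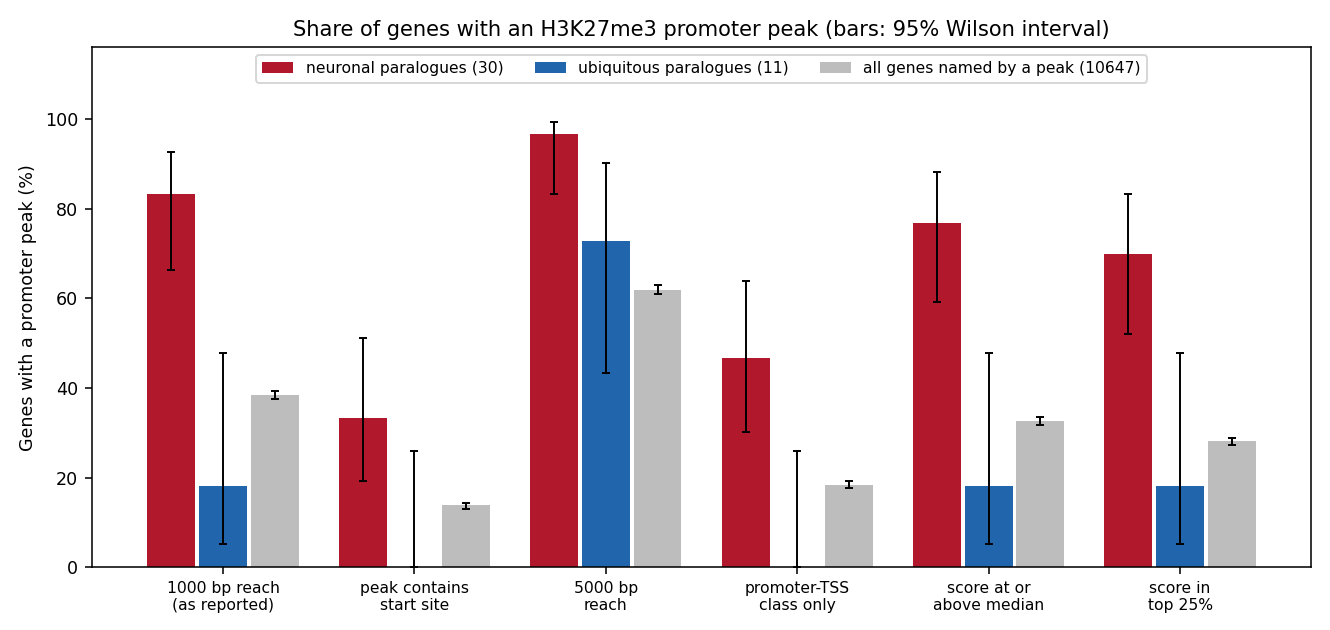
Share of genes with a promoter peak under 6 definitions, for neuronal paralogues (red), ubiquitous paralogues (blue) and all genes named by a peak (grey), with 95% Wilson intervals. The neuronal share exceeds the grey share under each definition, while the blue share passes the grey one with a reach of 5000 bp (72.7 against 61.9%).

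Other genes of vesicle release, outside the naming rule, were described from a list of 67 genes, of which peaks name 47. Promoter peaks were present at 20 of 28 neuronal genes (71.4%, 52.9 to 84.7%) and at 5 of 19 ubiquitous ones (26.3%, 11.8 to 48.8%), against the 38.4% of all named genes. Counting only peaks over the TSS left 4 of the 28 neuronal genes (14.3%), near the background of 13.8%. The highest score belonged to Sypl2 (762.0, 11049 bp), a synaptophysin relative of skeletal muscle that the list had placed with the ubiquitous class. It was followed by the vesicle GTPases Rab3c (244.4) and Rab3b (139.6), the priming factor Unc13b (139.6), also in the ubiquitous class, and the vesicle protein Syngr3 (118.0). The remaining ubiquitous genes with a promoter peak were Rab27b (18.4), Sytl3 (5.98) and Synj2 (3.30). The active zone scaffold Bsn had 86.8 and its relative Pclo 10.1. Rab3a, the main Rab3 of brain synapses, and the priming factor Unc13a had none.

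CpG content of the promoters was described by class, without a test. RefSeq promoters were available for 34 of the 46 members and for 18 unnamed relatives. The median number of CG dinucleotides per window was 17.0 in 23 neuronal genes, 21.5 in 18 ubiquitous genes and 13.0 in the 11 others. Over 27457 promoters it was 7.0. At 1 window per gene these outnumber the 23148 protein-coding genes, so they include other genes. The family holds protein-coding genes only. Among neuronal genes the median was 17.5 in the 16 with a promoter peak and 17.0 in the 7 without. Windows were missing mostly at marked members, among them Syt13, Rims2 and Rims4. They were available for 19 of the 30 members with a promoter peak and for 16 of the 25 neuronal ones. The comparison of marked with unmarked genes therefore leaves out part of the marked ones. Marked members ranged from 4 CG dinucleotides (Syt2 and Stxbp5l) to 45 (Syt9), and the 3037 promoters of all genes with a promoter peak had a median of 16.0. The repressor REST silences neuronal genes outside neurons through the RE1 element. The RE1 core was searched on both strands with at most 2 mismatches in its fixed letters. It was found in 1 of 52 windows (1.92%), against 1.96% of all windows. This was Sv2b, with CAGCAGCGGCGACAG starting 94 bases before the TSS, read in the direction of transcription. The match is a description of letters and not a binding site, and of the other windows it says only that no such match lies in them.

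**Figure D4:**
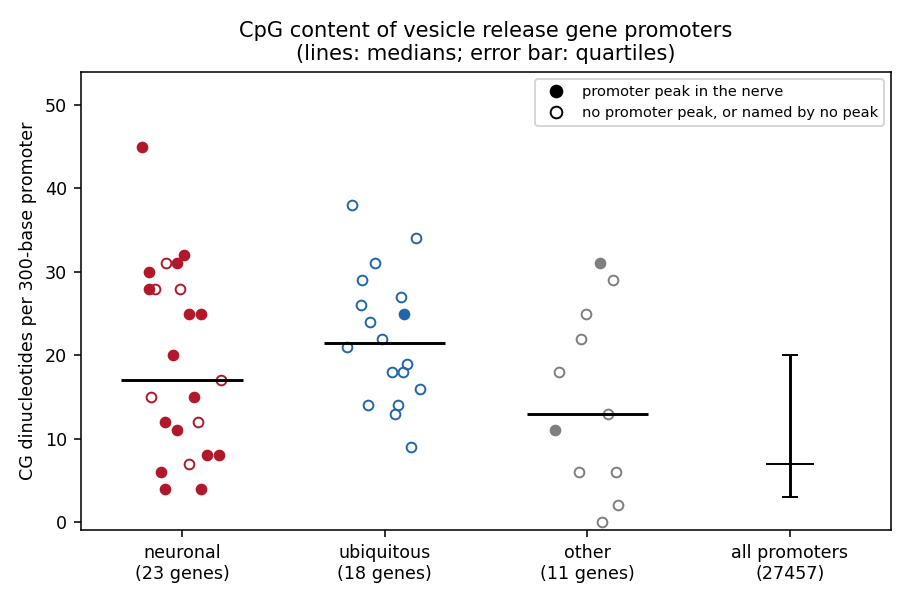
CG dinucleotides in the 300-base RefSeq promoter of each neuronal, ubiquitous and other gene (points; filled where the gene had a promoter peak) with class medians as lines, beside the median and quartiles of all promoters. The medians of 17.0, 21.5 and 13.0 all lie above the 7.0 of all promoters, which are not limited to protein-coding genes. Filled and open points overlap. Members without a window, most of them marked, are not drawn.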

How the data were processed

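H3K27me3 chromatin immunoprecipitation sequencing of sham-operated rat sciatic nerve gave 4 libraries (2 H3K27me3, 2 input). The submitters' processing notes name CASAVA 1.8.2, Bowtie and HOMER. Per the file headers, the combined H3K27me3 sham peaks were annotated with HOMER against rn5. How peaks were called, whether the input was used and how replicates were pooled is not given in the sources used here. Deposited by the authors were a score, coordinates and the distance from the centre to the nearest TSS for each peak. Each peak names only the gene of its nearest TSS. In 100% of peaks the width equalled end minus start.

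Scores under 10 (97601 peaks) were all whole multiples of 0.206263 within 0.005, and counting intervals treat a step as 1 sequenced tag, an assumption. A promoter peak has a distance of at most its width divided by 2 plus 1000 bp. Genes were matched by identifier to RefSeq tables of GRCr8, using the first promoter window listed per gene. Members, classes and lists were chosen with earlier results of these data known. A separate rule set which genes are described by name. It took the 10 members with the highest scores, fixed paralogue sets, and neuronal members without a promoter peak. It also took ubiquitous or other members with one, and for the second list the 5 highest and every ubiquitous gene marked. That rule counted Vamp7 as X-linked, but the gene table places it on chromosome 12. Some genes counted in the totals are not reported here by name. Shares have 95% Wilson intervals. Alternatives changed reach, position class, score, width, classes and background. Code (Python 3.11.15, pandas 2.3.3, SciPy 1.17.1, matplotlib 3.10.9) was tested on simulated data.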

Additional observations from a re-analysis of the deposited data

How the results depend on the processing

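No paired analysis was possible because the deposited list pools the replicates, and for the same reason no replicate could be left out. Requiring that the peak contain the TSS gave 11 members with a promoter peak in place of 30, 10 neuronal in place of 25, 0 ubiquitous in place of 2, and 5 of the 47 other release genes in place of 25. Those 5 are 10.6%, below the 13.8% of all named genes, whereas the 25 (53.2%) were above the 38.4%. Restricting the count to peaks whose centre falls in the promoter-TSS class gave 14, 14, 0 and 13 in the same order (background 18.4%). The median score of members was then 18.1 and their median width 617 bp. A reach of 5000 bp gave 8 ubiquitous members (72.7%, background 61.9%). Counting the class other with the ubiquitous class gave 5 of 16 (background 38.4%). With peaks of at least 1000 bp, 15 of the 47 other release genes were left (31.9%), and 23 of 46 members and 19 of 30 neuronal members, against 2341 of the 10647 named genes. By construction, the stricter definitions count fewer peaks and the wider reach more. The counts of members and neuronal members stayed within 1.5 times under a reach of 5000 bp (41 and 29) and under score minimums of 4.54 (28 and 23) and 9.9 (26 and 21). The background moved from 38.4% to 61.9% with that reach and to 32.7 and 28.1% with those minimums. The neuronal share was thus 96.7% against 61.9% at 5000 bp, where it was 83.3% against 38.4% at 1000 bp. With Cplx3, Cplx4, Syt5 and Syt13 moved out, 22 of 26 neuronal members had a promoter peak (background 38.4%). As observed over expected ratio, the members' median CpG content was 0.697, against 0.417 over all promoters, which are not limited to protein-coding genes. The single pooled list and unknown depth set the limit: low scores such as those of Syt2, Syp and Rims1 rest on few tags, and a missing peak is not shown to be a missing mark.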
